A study of Mus musculus with 2 samples.

Results

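Tbx2, Tbx3, Tbx4 and Tbx5 were followed in the accessible chromatin of mouse lung, 4 of the 21938 protein-coding genes annotated on the placed chromosomes. They were taken by symbol from the GENCODE annotation of mm10. DNase-seq, which cuts nuclei with DNase I and sequences the cut ends, had been run on lung tissue of B6CASTF1/J males aged 14 days. This F1 hybrid carries a C57BL/6 and a CAST genome, and the files do not separate its alleles. The 2 libraries form 1 group with no treatment or mutation. Replicate 2 was made from 3 pooled males, while for replicate 1 the labels name a male and no pool. The labels give both a single donor record, which leaves unknown whether animals are shared between them. A peak is an interval the authors called accessible, and a peak within 1 kb of any transcript 5′ end of a gene is called its promoter peak. All other peaks within 100 kb of a gene body are called distal. Peaks were ranked by the authors' score within their own library, and the percentile is the share of that library's peaks with a lower score.

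T-box factors share a DNA-binding domain named after the T (brachyury) gene. Tbx2 and Tbx4 are neighbours on 1 chromosome and Tbx3 and Tbx5 on another, an arrangement that goes back to a tandem duplication followed by duplication of the linked pair. In the developing lung all 4 are known from the mesenchyme. Tbx4 and Tbx5 act in lung bud formation and branching, upstream of the growth factor Fgf10, while Tbx2 and Tbx3 are known mostly as repressors that keep mesenchymal cells dividing by holding down cell cycle inhibitors and WNT antagonists.

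Replicate 1 held 94786 peaks and replicate 2 held 77403, with 326313 and 252174 footprints, which are short stretches protected from cutting within accessible DNA. Of the peaks of replicate 1, 73.6% overlapped a peak of replicate 2, and 89.8% the other way. The files give no read counts, so depth is unknown. All 6 mesenchyme markers and all 5 alveolar epithelium markers had a promoter peak in both libraries, while none of the 5 cardiac muscle markers had one in either. Endothelium markers had 4 of 4 in both, ciliated cell markers 2 of 2, immune markers 2 of 3, smooth muscle and pericyte markers 3 and 2 of 3, and mesothelium markers 1 and 0 of 3. Lung tissue was assayed in bulk, so fewer cells of a type and less accessibility per cell cannot be told apart.

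Promoter peaks marked 3 of the 4 genes in replicate 1 and all 4 in replicate 2. The background was high: 66.6% of protein-coding genes had a promoter peak in replicate 1, 64.1% in replicate 2 and 63.6% in both. Tbx2, Tbx3 and Tbx4 were called in both libraries (3 of 4, exact 95% binomial interval 19.4 to 99.4%, counting only), so the count is near the background. The genes differed in the rank of their highest promoter peak. Tbx3 stood first and Tbx2 next in each library, then Tbx4, and Tbx5 last.

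Tbx3, on chr5:119670669-119684724 (plus strand, 5 distinct 5′ ends), had its highest promoter peak at the 93.6 percentile in replicate 1 and the 95.01 percentile in replicate 2, a mean of 94.3 ± 1.03 (SD, n = 2). The peak covered the first 5′ end in both (chr5:119670541-119670880 and chr5:119670581-119670940) and had its centre in an untranslated exon. The same peak lies within 1 kb of a 5′ end of Tbx3os1, the antisense transcript, and cutting does not tell which gene it serves. Among genes with a promoter peak it ranked above 63.0% and 71.6%, in the upper part of a distribution with a median of 89.9 and 89.7. No peak of either library lay within 1 kb of the fourth 5′ end.

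Tbx2, on chr11:85832551-85841948 (plus strand, 1 annotated 5′ end), had 1 promoter peak in each library, at the 87.0 and the 89.5 percentile, a mean of 88.2 ± 1.76 (SD, n = 2). The range of Tbx2 did not overlap that of Tbx3. In replicate 1 the peak was chr11:85832441-85832880 and covered the 5′ end. In replicate 2 it was chr11:85832601-85832860 and began 50 bp after it. The noncoding gene 2610027K06Rik starts on the other strand within 1 kb of this peak, so it is a promoter peak of both. The 110 bases before the Tbx2 5′ end, the part of the peak outside annotated exons, are shown because they are the flank that only the replicate 1 peak reached. In this and the following sequences (GRCm38, the assembly of mm10, plus strand, the C57BL/6J reference) capitals mark bases inside footprints of both libraries, and here there are none.
Tbx2 promoter flank, chr11:85832441-85832550: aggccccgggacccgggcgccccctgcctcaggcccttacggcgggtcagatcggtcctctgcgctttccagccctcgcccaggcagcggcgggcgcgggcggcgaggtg

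Tbx4, on chr11:85886422-85916097 (plus strand, 3 distinct 5′ ends), had 3 promoter peaks in each library. At the first 5′ end, chr11:85886241-85886440 stood at the 74.9 percentile in replicate 1 and chr11:85886221-85886460 at the 55.1 in replicate 2. Just upstream, chr11:85885941-85886120 and chr11:85885925-85886140 stood at 67.7 and 52.5. At the third 5′ end, 10.1 kb into the gene, chr11:85896378-85896586 stood at 50.7 and chr11:85896361-85896619 at 57.4. The highest peak thus lay at the first end in replicate 1 and at the third end in replicate 2. The means of the highest percentiles were 66.2 ± 12.4 (SD, n = 2), the widest spread of the 3 genes called in both libraries, and both values lay below those of Tbx2. No peak of the smaller lists lay within 1 kb of the second 5′ end, where the nearest was 1454 bp away in replicate 1 and 3603 bp in replicate 2. The stretch at the first end is shown because 24 of its 146 bases, a single G-rich run, were footprinted in both libraries.
Tbx4 first promoter, chr11:85886221-85886366: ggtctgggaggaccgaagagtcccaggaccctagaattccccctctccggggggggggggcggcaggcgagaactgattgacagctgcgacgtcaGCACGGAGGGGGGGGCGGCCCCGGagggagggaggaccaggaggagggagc

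Tbx5, on chr5:119832668-119885219 (plus strand, 3 distinct 5′ ends), had a promoter peak only in replicate 2. It was 75 bp wide (chr5:119832564-119832638), ended 30 bp before the first 5′ end, and stood at the 44.7 percentile. In replicate 1 the nearest peak of the smaller list was 21048 bp away. The larger deposited list of replicate 1 does hold a peak over this 5′ end (chr5:119832512-119832703), whose lowest false discovery rate was 0.00133. In replicate 2 the lowest value at the site was 0.00047, and every peak of the smaller lists around the 4 genes reached 0.001 or below. Such a value did not always bring a peak into the smaller list. In replicate 1, chr5:119669834-119670060 near Tbx3 reached 0.000707 and is in the larger list only. Of all protein-coding genes 0.583% were called in replicate 2 alone, against 3.04% in replicate 1 alone. No peak lay within 1 kb of the second or the third 5′ end in either list of either library. In GENCODE this peak lies between genes, while in RefSeq all of its 75 bases fall in an exon, as do all 340 and 360 bases of the first Tbx3 promoter peak, so neither sequence is printed.

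**Figure D1:**
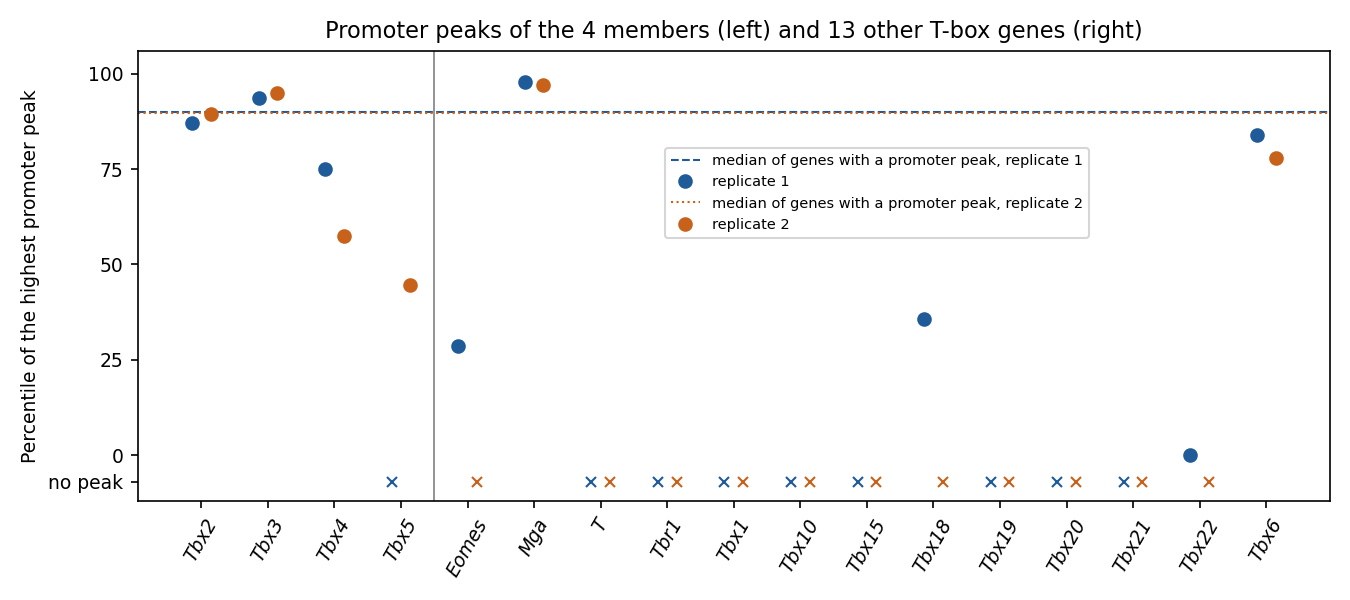
Percentile of the highest promoter peak (y axis) of the 4 members and the 13 other T-box genes (x axis) in replicate 1 (blue) and replicate 2 (orange), with crosses for no promoter peak and lines for the medians of all genes with one. Tbx3 lies above both medians, Tbx2 just below them, Tbx4 lower, and Tbx5 has a point only in replicate 2.

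The order of the 4 promoters followed their observed-to-expected CpG ratio at the outermost 5′ end, a property of the sequence alone. Over the 1001 bases around the outermost 5′ end this ratio was 0.821 at Tbx3, 0.756 at Tbx2, 0.512 at Tbx4 and 0.426 at Tbx5. The median over all genes was 0.552. Tbx3 and Tbx2 lay above that median and Tbx4 and Tbx5 below it. In replicate 2 the highest Tbx4 peak lay at the third 5′ end, where the ratio was 0.213, below that of Tbx5. The order thus holds for the outermost ends, where the Tbx4 peak of replicate 2 stood at 55.1 and that of Tbx5 at 44.7. By the plain number of CpGs in the same bases Tbx2 came first, with 94, then Tbx3 (82), Tbx4 (49) and Tbx5 (25). With 4 genes this is a description.

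Of the 13 other T-box genes, 5 had a promoter peak in replicate 1 (95% interval 13.9 to 68.4%), where 66.6% of all protein-coding genes had one. In replicate 2 there were 2 (1.92 to 45.4%), against 64.1% of all genes. The number called in both libraries was 2, and 8 with the larger deposited lists. Only Mga, a large MAX partner with a T-box domain, and Tbx6, a regulator of presomitic mesoderm, were called in both. Mga stood at 97.9 and 97.1, above all 4 members in each library, and Tbx6 at 84.0 and 77.8. Tbx18, known from epicardium and mesothelium, Eomes, a regulator in early embryo and lymphocytes, and Tbx22, known from the palate, were called in replicate 1 alone, at 35.6, 28.5 and 0.0517. The other 8 (Tbx1, Tbx10, Tbx15, Tbx19, Tbx20, Tbx21, Tbr1 and T) had no promoter peak in either library. Tbx20, which acts with Tbx5 in heart muscle, also had no distal peak within 100 kb.

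Around the chromosome 11 pair, whose gene bodies lie 44.5 kb apart, the libraries gave 27 and 20 distal peaks. They form 27 distal regions, of which 19 had a peak in both libraries, 7 in replicate 1 alone and 1 in replicate 2 alone. At 6 of the 7 the larger list of replicate 2 held a peak, and at the 1 that of replicate 1 did. Tbx2 had 25 and 21 distal peaks within its window and Tbx4 had 20 and 14, and the windows overlap. Only a gene's own promoter peaks are left out of its count, whereas the pair counts leave out those of both members. The 3 promoter peaks of Tbx4 thus count as distal for Tbx2, and the 1 of Tbx2 counts as distal for Tbx4. The densities of these and of all other genes were counted in the same way. Per 100 kb, Tbx2 had 11.9 and 10.0 distal peaks, above 85.6% and 86.0% of all protein-coding genes. Tbx4 had 8.71 and 6.10, above 71.1% and 63.2%. The medians over all genes were 5.59 and 4.59, and both genes lay above them in both libraries.

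**Figure D2:**
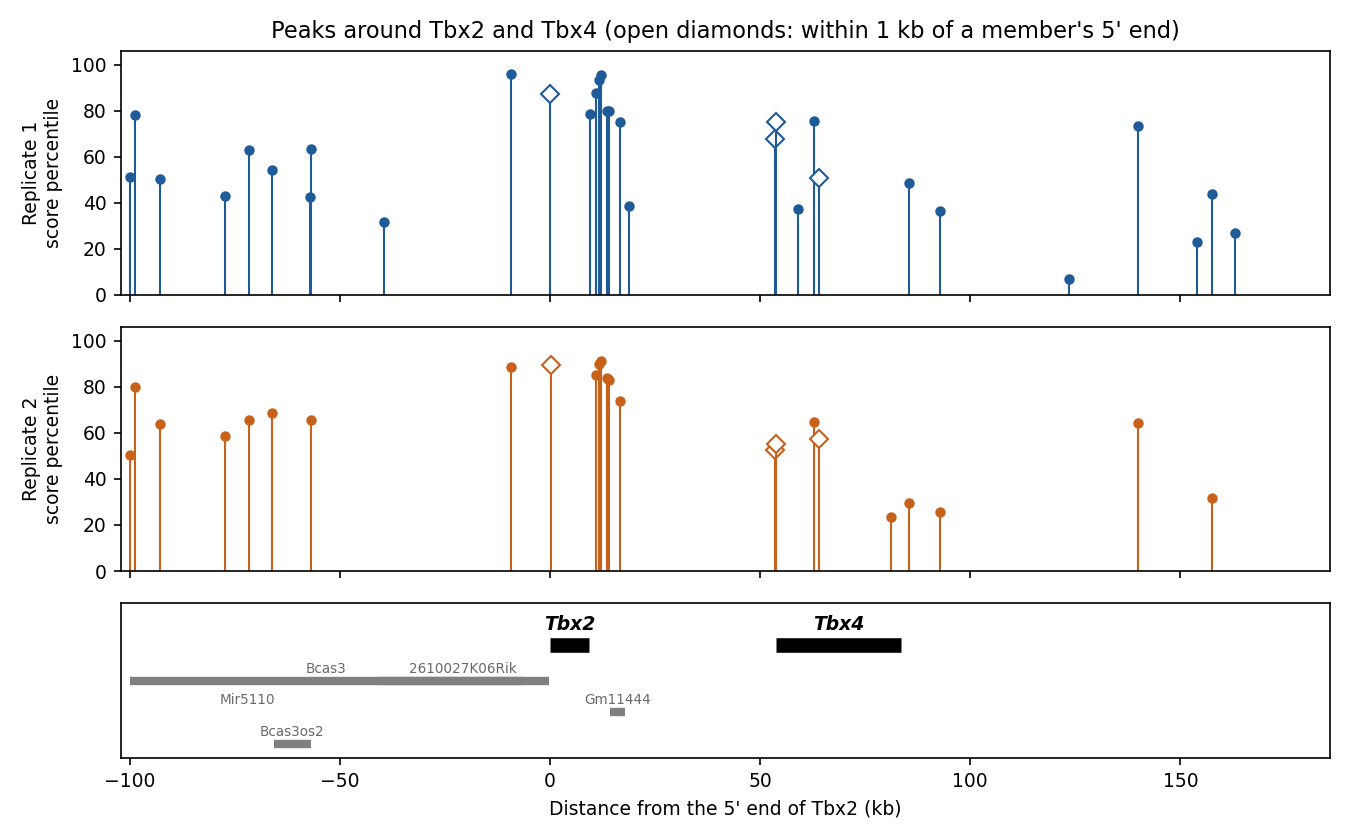
Score percentile (y axes) of every peak around Tbx2 and Tbx4 in replicate 1 (top) and replicate 2 (middle) against distance from the Tbx2 5′ end in kb, with members (black) and other genes with a promoter peak (grey) below. The tallest group lies just downstream of Tbx2, where 6 sites span 4.84 kb.

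The highest distal sites of the pair sat close to Tbx2. Just after the 3′ end of Tbx2, which is 0.153 kb before the first of them, 6 sites spanned 4.84 kb (chr11:85842101-85846940), and 5 of the 6 were called in both libraries. Their percentiles ran from 78.4 to 95.4 in replicate 1 and from 83.1 to 91.3 in replicate 2. Part of this cluster ranked above the Tbx2 promoter peak itself. The highest, chr11:85844721-85844900, stood at 95.4 and 91.3. The next of the cluster, chr11:85844201-85844420, stood at 93.2 and 90.1. Both exceeded the Tbx2 promoter in both libraries. The sites chr11:85843321-85843620 (87.5 and 85.3) and chr11:85845987-85846220 (79.9 and 83.6) completed the 4 highest of the cluster. The site nearest to Tbx2, chr11:85842101-85842272, was called in replicate 1 alone, at 78.4, the highest distal site of that library without a partner. The larger list of replicate 2 does hold a peak there, and the lowest false discovery rate of that library at the site was 0.00272. In replicate 2 the highest without a partner was chr11:85913681-85913743 in a Tbx4 intron, at 23.7, where the larger list of replicate 1 holds a peak.

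On the other side of Tbx2, at -9.15 kb from its 5′ end, chr11:85823301-85823500 stood at 96.0 and 88.7. It lies in introns of Bcas3, a cytoskeletal protein gene that fills most of the upstream flank, and of 2610027K06Rik. The promoter peaks of Bcas3 itself (up to 97.1 and 99.2) fall outside the windows. Inside Tbx4, the intron site chr11:85895161-85895460 lay 8.89 kb after the first 5′ end and stood at 75.5 and 64.8, above every Tbx4 promoter peak of the same library. This contrast rests on the 1 kb limit: with a window of 2500 bp the site is itself counted as a Tbx4 promoter peak and is the highest of them. It holds 23 CpGs at 66.7% GC. Of the other annotated genes in the window, Mir5110 (63.0 and 65.6), Bcas3os2 (63.3 and 65.8) and Gm11444 (74.9 and 73.7) had promoter peaks in both libraries.

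The 4 highest shared distal sites of the pair that hold a shared footprint are printed in order of mean percentile. They show where both libraries were protected at the distal sites that rank highest.
Tbx2 downstream site A, chr11:85844721-85844900: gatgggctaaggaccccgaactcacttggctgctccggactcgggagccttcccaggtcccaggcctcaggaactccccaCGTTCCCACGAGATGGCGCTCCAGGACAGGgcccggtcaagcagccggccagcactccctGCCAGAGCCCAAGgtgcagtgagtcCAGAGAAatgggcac
Tbx2 upstream site B, chr11:85823301-85823500: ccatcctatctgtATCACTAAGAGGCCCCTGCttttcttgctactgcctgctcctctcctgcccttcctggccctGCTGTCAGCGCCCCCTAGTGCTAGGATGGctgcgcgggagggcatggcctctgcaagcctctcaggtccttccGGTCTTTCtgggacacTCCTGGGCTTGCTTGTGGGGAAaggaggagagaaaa
Tbx2 downstream site C, chr11:85844201-85844420: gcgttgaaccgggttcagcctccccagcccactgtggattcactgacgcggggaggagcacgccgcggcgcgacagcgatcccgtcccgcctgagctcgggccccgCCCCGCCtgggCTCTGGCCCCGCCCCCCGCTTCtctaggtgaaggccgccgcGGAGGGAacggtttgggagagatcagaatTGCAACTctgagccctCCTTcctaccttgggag
Tbx2 downstream site D, chr11:85843321-85843620: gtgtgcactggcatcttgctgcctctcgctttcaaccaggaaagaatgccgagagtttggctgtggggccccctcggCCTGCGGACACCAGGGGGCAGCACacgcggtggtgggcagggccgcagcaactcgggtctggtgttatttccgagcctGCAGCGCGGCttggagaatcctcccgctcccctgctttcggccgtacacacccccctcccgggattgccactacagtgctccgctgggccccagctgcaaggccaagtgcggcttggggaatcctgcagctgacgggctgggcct

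Sites A, B and D each carry, inside a run of capitals, a match with 1 mismatch to the 12-letter CTCF consensus, the sequence read by the factor that anchors chromatin loops. Site C lacks it and instead holds the KLF/SP consensus GGGCGGGG, on the reverse strand, inside a footprint of both libraries. That consensus was in 3.22% and 3.26% of all distal peaks.

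Around the chromosome 5 pair, whose gene bodies lie 147.9 kb apart, the libraries gave 26 and 13 distal peaks in 26 regions. Of these, 12 had a peak in both libraries, 13 in replicate 1 alone and 1 in replicate 2 alone. At 4 of the 13 the larger list of replicate 2 held a peak, while at the 1 that of replicate 1 held none. Tbx3 had 20 distal peaks in replicate 1 and 9 in replicate 2, and Tbx5 had 15 and 10. Per 100 kb, Tbx3 had 9.34 and 4.20, above 74.6% and 46.2% of genes, so it lay above the median in 1 library and below it in the other. Tbx5 had 5.94 and 3.96, above 52.8% and 44.2%, near the median in both.

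**Figure D3:**
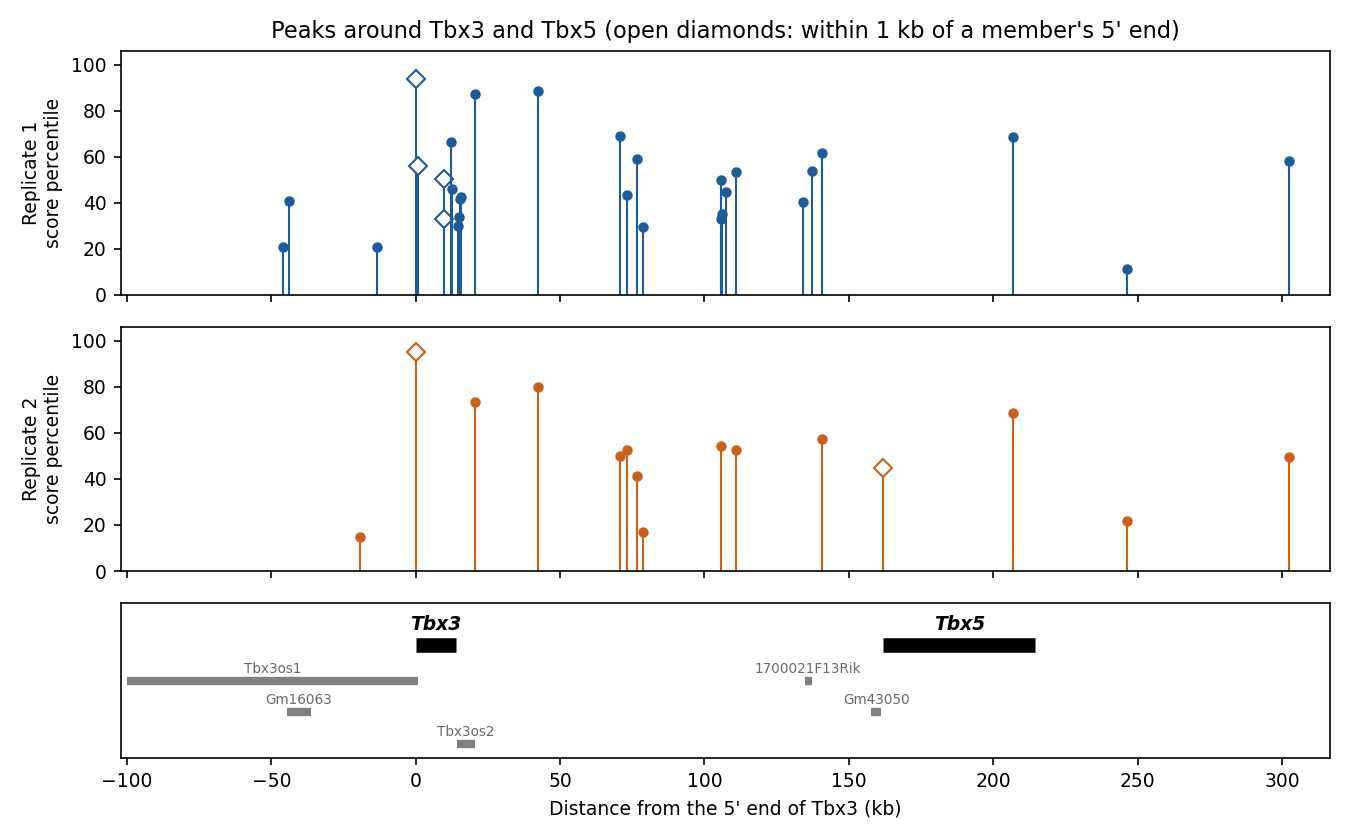
Score percentile (y axes) of every peak around Tbx3 and Tbx5 in replicate 1 (top) and replicate 2 (middle) against distance from the Tbx3 5′ end in kb, with members (black) and other genes with a promoter peak (grey) below. Over Tbx3 and up to 3 kb after it replicate 1 has 10 peaks and replicate 2 has 1, the first promoter peak.

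The highest shared distal site of this pair, chr5:119712961-119713120, lay 42.4 kb after the first Tbx3 5′ end, between genes, and stood at 88.6 and 79.8. The second, chr5:119691221-119691380, stood at 87.0 and 73.4 and lies within 1 kb of the 5′ end of Tbx3os2, a noncoding gene. The third, chr5:119877301-119877520, lies in an intron of Tbx5, 44.7 kb after its first 5′ end. It stood at 68.7 in both libraries, above the Tbx5 promoter peak, and was the only distal peak within the Tbx5 body. The next in order, chr5:119741241-119741420 (68.8 and 50.1) and chr5:119811401-119811620 (61.5 and 57.4), lie between the genes. None of the distal sites of this pair reached the percentile of the Tbx3 promoter.

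The 4 highest of these sites are printed because they rank highest among the shared sites of the Tbx3 and Tbx5 windows away from the members' own 5′ ends.
Tbx3 downstream site E, chr5:119712961-119713120: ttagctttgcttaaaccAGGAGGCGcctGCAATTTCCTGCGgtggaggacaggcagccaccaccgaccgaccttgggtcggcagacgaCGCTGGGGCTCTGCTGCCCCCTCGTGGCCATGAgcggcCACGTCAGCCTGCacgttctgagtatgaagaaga
Tbx3os2 start site F, chr5:119691221-119691380: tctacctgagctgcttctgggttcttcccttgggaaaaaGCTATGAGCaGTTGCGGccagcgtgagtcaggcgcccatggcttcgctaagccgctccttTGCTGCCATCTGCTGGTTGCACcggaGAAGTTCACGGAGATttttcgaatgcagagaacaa
Tbx5 intron site G, chr5:119877301-119877520: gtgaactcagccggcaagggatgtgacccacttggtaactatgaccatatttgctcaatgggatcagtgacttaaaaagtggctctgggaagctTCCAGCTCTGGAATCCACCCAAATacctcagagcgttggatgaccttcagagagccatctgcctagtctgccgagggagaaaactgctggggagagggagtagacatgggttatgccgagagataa
Tbx3 to Tbx5 site H, chr5:119741241-119741420: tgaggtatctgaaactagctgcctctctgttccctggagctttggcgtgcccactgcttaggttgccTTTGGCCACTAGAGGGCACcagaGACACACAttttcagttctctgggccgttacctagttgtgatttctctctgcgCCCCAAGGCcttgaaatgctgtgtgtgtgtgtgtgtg

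Sites F and H carry the exact CTCF consensus and site E a match with 1 mismatch, each inside a run of capitals. Site G holds none. Site F also holds the AP-1 consensus TGANTCA, and site G the CEBP consensus TTGCNCAA, both outside the footprints. AP-1 was in 7.23% and 7.42% of all distal peaks and CEBP in 3.38% and 3.47%. These are 2 of 16 consensus sequences searched, so single matches carry little weight.

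The libraries differed most over the body of Tbx3. Of its 4 promoter peaks in replicate 1, 3 had no counterpart in replicate 2: chr5:119671500-119671763 (55.9) and a pair of overlapping calls at the fifth 5′ end, chr5:119680226-119680820 (50.4) and chr5:119680341-119680420 (32.9). Further distal peaks covered a coding exon (chr5:119682781-119682980, 66.3, the highest distal site of this pair without a partner), the 3′ untranslated exon and the 3′ part of Tbx3os2, which is read from the other strand. From the Tbx3 5′ end to 3 kb after the gene, replicate 1 had 10 peaks with 30 footprints and replicate 2 had 1 peak with 6. Of the 9 peaks of replicate 1 without a partner, 1 held any base listed in replicate 2 (false discovery rate up to 0.05). It was the coding exon site, where the larger list of replicate 2 holds a peak.

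Elsewhere, peaks of like score were mostly shared. Of all replicate 1 peaks in the same score deciles 77.2% had a partner, against 1 of 10 here. The bounds of this stretch were chosen after its values were seen, so the contrast is a description and not a test. The 10 include both of the overlapping calls at the fifth 5′ end. Listed bases covered 24.0% of the Tbx3 body in replicate 1 and 4.51% in replicate 2, a difference of 19.5 percentage points that exceeded that of 99.3% of protein-coding genes. The median difference over all genes was 0.183 points. Tbx2 (4.13% and 4.54%), Tbx4 (6.00% and 6.01%) and Tbx5 (1.25% and 0.997%) differed by under 1 point. Genes with at least 3 more promoter peaks in replicate 1 made up 1.34% of all genes, and those with at least 3 more in replicate 2 made up 0.0638%.

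**Figure D4:**
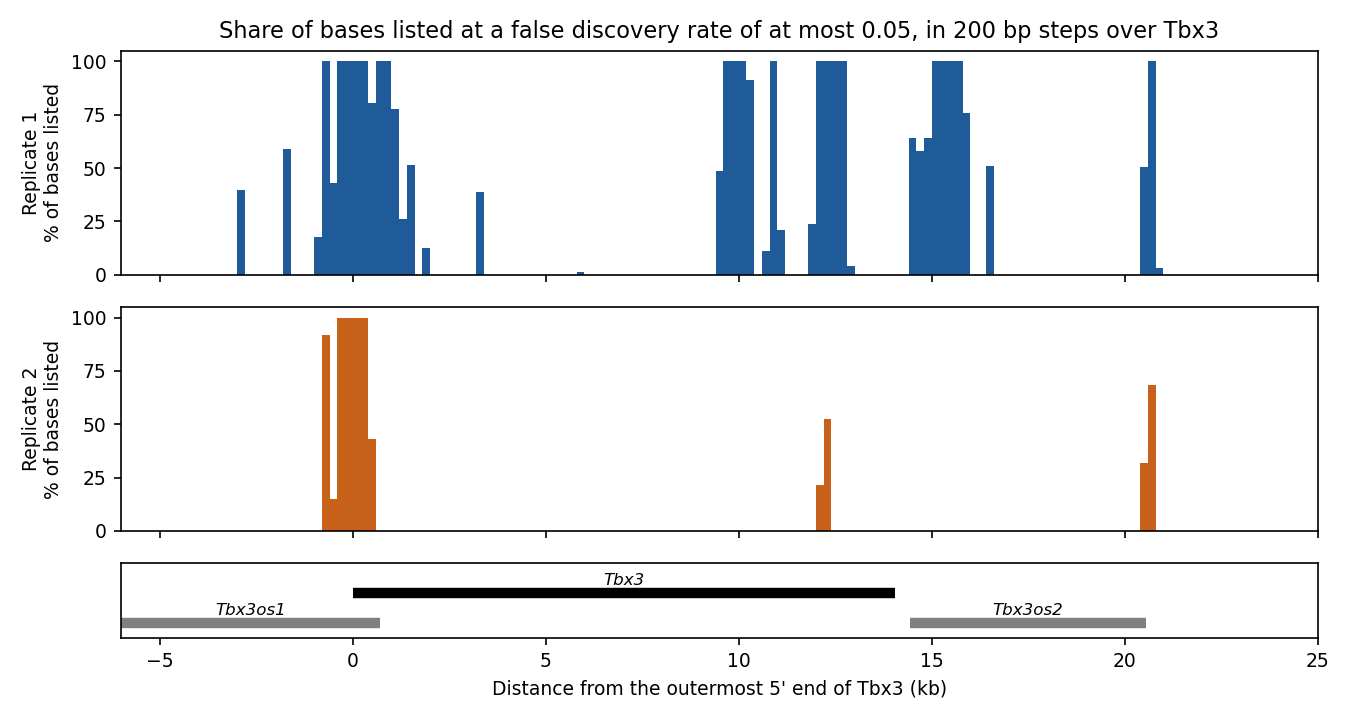
Share of bases in 200 bp steps (y axes, percent) listed by each library (false discovery rate up to 0.05), against distance from the outermost Tbx3 5′ end in kb, with genes below. Both libraries cover the first 5′ end, while the blocks over the 3′ part of Tbx3 and over Tbx3os2 belong almost wholly to replicate 1.

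Upstream of Tbx3 the smaller lists of the libraries shared no distal site. The larger lists of both did share sites there, at chr5:119587548-119587664 and chr5:119602161-119602285 in replicate 1. In its smaller list replicate 1 had 3 peaks upstream, at 20.8, 40.8 and 20.8, and replicate 2 had 1, chr5:119651244-119651313, at 14.6. The second of replicate 1 lay near the 5′ end of Gm16063 within Tbx3os1, and the larger list of replicate 2 also holds a peak there. The distal sites of Tbx3 shared by the smaller lists all lay downstream, toward Tbx5. For Tbx5, replicate 1 alone had a peak near the noncoding gene 1700021F13Rik (53.7), and the Tbx5 promoter peak of replicate 2 is also within 1 kb of Gm43050. Over the pair, 46.7% of replicate 1 peaks had a partner, against 76.3% of all peaks in the same deciles. For the chromosome 11 pair these shares were 77.4% and 83.0%.

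**Figure D5:**
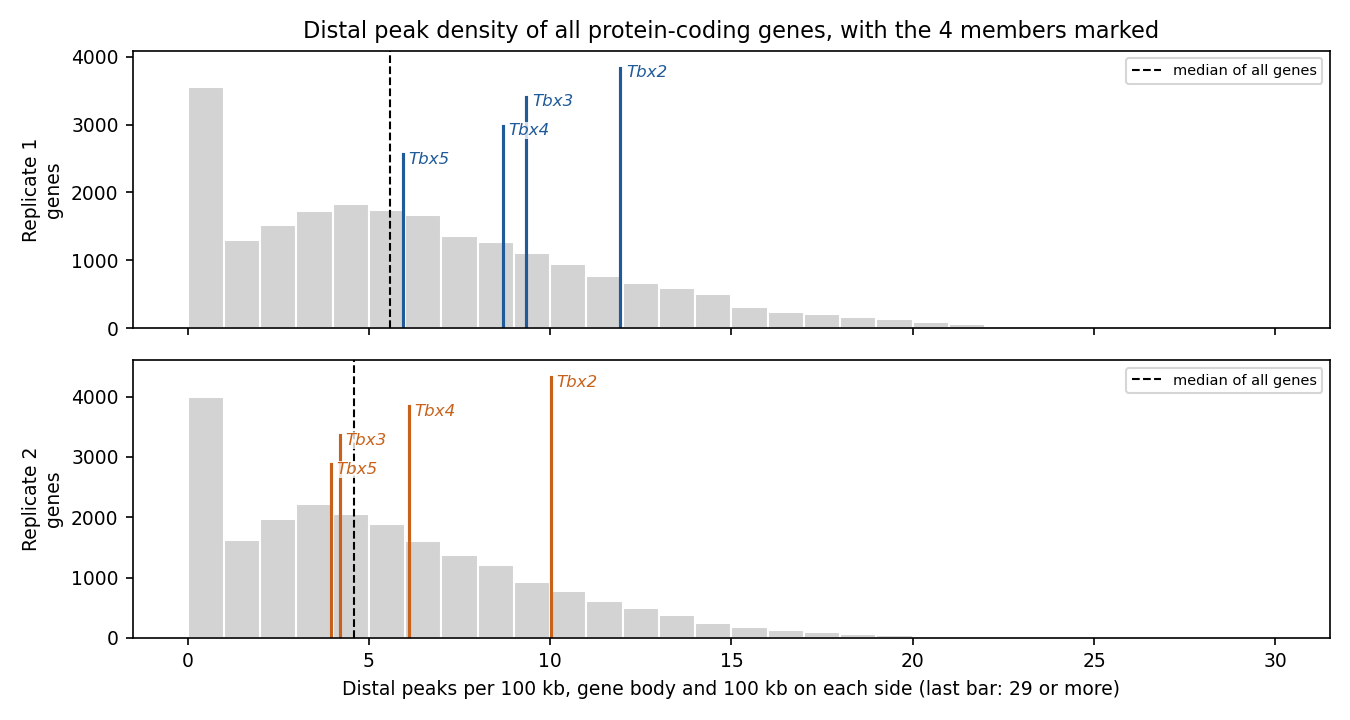
Number of protein-coding genes (y axes) by distal peaks per 100 kb (x axis) in replicate 1 (top) and replicate 2 (bottom), with coloured lines for the 4 members and a dashed line for the median. Tbx2 lies to the right in both libraries, and Tbx3 moves from above the median to below it.

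Footprints were counted where they touched a peak. The peaks of Tbx2 held 88 and 76, those of Tbx3 65 and 29, those of Tbx4 80 and 59, and those of Tbx5 34 and 29. Peaks in the windows of both members of a pair count for each gene here. With each peak counted once, the chromosome 11 pair held 99 and 83 footprints and the chromosome 5 pair 79 and 41. Per peak, the chromosome 11 pair had 3.19 and 3.46 footprints, against 2.84 and 2.98 in all peaks of the same score deciles. The chromosome 5 pair had 2.63 and 2.73, against 2.42 and 2.48. These numbers are close to the background of their score class. At the Tbx2 promoter there were 10 and 6 footprints, and at the first Tbx3 promoter peak 5 and 6. The Tbx5 promoter peak of replicate 2 held 1.

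The T-box consensus AGGTGTGA, searched on both strands like every sequence here, was in none of the peaks around the 4 genes, 61 in replicate 1 and 39 in replicate 2. It was in 0.556% and 0.588% of all distal peaks, so few matches could occur among this many peaks. The KLF/SP consensus was in the Tbx2 promoter peak and the first Tbx3 promoter peak in both libraries, and in 22.9% and 24.6% of all peaks near protein-coding 5′ ends. The exact CTCF consensus was in 3 distal peaks of each library, the same 3 sites: F, H and chr11:85972461-85972660, which lies 86.1 kb after the first Tbx4 5′ end and stood at 73.2 and 64.2. Each match lay inside a footprint of both libraries. The locus shares, 3 of 52 and 3 of 32 distal peaks, stand beside 8.46% and 8.99% of all distal peaks, where peaks within 1 kb of any protein-coding 5′ end, 1 per library in these windows, are left out.

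Allowing 1 mismatch, a search chosen after the sequences had been seen, gave 12 of 52 distal peaks in replicate 1 and 9 of 32 in replicate 2, against 24.5% and 24.6% of all distal peaks. Among distal peaks in the top 30% of score the counts were 8 of 12 and 6 of 9, against 49.6% and 40.9%. Of the 5 highest shared distal sites of each pair, 10 in all, 6 held such a match inside a footprint of both libraries and 4 held none. The share of all distal peaks with a match inside a footprint of both libraries is not given here. Whether 6 of 10 is unusual for sites of this rank is therefore unknown. Elsewhere, chr11:85733721-85733940 (78.1 and 79.7), which ranks above the third to the fifth of the chromosome 5 pair, held one outside every footprint. A match is a description of the letters and not a test of binding.

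Of 22 genes that work with these factors in lung mesenchyme, 20 had a promoter peak in replicate 1 (95% interval 70.8 to 98.9%), against 66.6% of all protein-coding genes. In replicate 2 there were 16 (49.8 to 89.3%), all of them among the 20, which is near the background of 64.1%. The highest by mean percentile were the cell cycle inhibitor Cdkn1a (94.8 and 92.3), the growth factor Bmp4 (91.9 and 88.0) and the hedgehog effector Gli1 (90.9 and 88.6). Cell cycle inhibitors and WNT antagonists are the kinds of gene that Tbx2 and Tbx3 are known to hold down. Of those listed, Cdkn1b stood at 87.3 and 89.7, Cdkn2a at 53.9 and 38.4, and the WNT antagonist Shisa3 at 13.8 and 10.6. Cdkn1a is given above and Frzb below.

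Wnt2, a mesenchymal WNT ligand, and Shh, the epithelial hedgehog ligand, had no promoter peak in either library. Fgf10, the ligand downstream of Tbx4 and Tbx5, had promoter peaks in replicate 1 alone, the highest at 12.2. The same held for Wnt2b (43.4), Wnt5a (45.2), both WNT ligands, and Frzb (22.3), a WNT antagonist. In the smaller lists these 4 genes had 2 to 4 promoter peaks each in replicate 1 and none in replicate 2. Their calls there rest on 1 library, as do those of Tbx3 beyond its first promoter. With the larger deposited lists, 20 of the 22 genes were called in both libraries, against 16 with the smaller lists.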

How the data were processed

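DNase-seq of lung was deposited as peak, footprint and false discovery rate files for each of 2 libraries. Reads were aligned to mm10, per the labels, with aligner and peak caller not given in the sources used here. Each peak's score is the authors' deposited signal value, on a scale that is not stated, and was used only to rank peaks within a library. Of the 2 peak files of a library the one with fewer lines was used. The deposited false discovery rates, read as q-values, list runs of bases at 0.05 or below, and the footprint files carry a constant p-value threshold of 0.01.

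The members, gene lists and consensus sequences were chosen with earlier results of these data known. Peaks were joined to GENCODE M21 models and the GRCm38 sequence by position, with Python 3.11.15, numpy 2.4.6 and pysam 0.24.0, and the counting functions were tested on simulated peaks. The libraries shared a site where peaks overlapped by at least 1 bp. Distal peaks used for sequence shares lay over 1 kb from every protein-coding 5′ end. Depth is unknown, and with 1 group no test between groups was made. Intervals are exact (Clopper-Pearson) and cover counting error only.

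Named were the members with all promoter peaks, the 5 highest shared distal regions of each pair by mean percentile, the highest without a partner per library, neighbouring genes with a promoter peak, all other T-box genes, and the 3 highest pathway genes with those not called in both libraries. Cdkn1b, Cdkn2a, Shisa3, the Tbx4 intron site and the chromosome 11 CTCF site were chosen after their values were seen. So were the bounds of the cluster after Tbx2 and of the stretch over Tbx3. Alternatives changed the promoter window, 5′ ends, flank, peak list, overlap rules and search width, and left out each library.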

Additional observations from a re-analysis of the deposited data

Results flagged for a closer look

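The larger deposited lists held 8 peaks within 1 kb of a member's 5′ end that overlap no peak of the smaller list of their own library, 5 in replicate 1 and 3 in replicate 2. Scores are given as percentiles of the smaller list. At Tbx5, replicate 1 had a peak over the first 5′ end, at 53.5, where replicate 2 has its promoter peak. Near the same end, chr5:119831987-119832160 in replicate 1 and its counterpart in replicate 2 stood at 55.1 and 42.4, with lowest false discovery rates of 0.001004 and 0.00148. Before Tbx3, chr5:119669834-119670060 in replicate 1 lay 609 bp from the first 5′ end and stood at 45.2, and its counterpart in replicate 2 at 55.4. After it, chr5:119671228-119671440 (44.3) and chr5:119672017-119672171 (39.4) were in replicate 1 alone. At the second Tbx4 5′ end, chr11:85889901-85889933 was in replicate 2 alone, at 10.02. Tbx2 had none. Over both pairs, 8 sites of any distance were in the larger lists of both libraries and in neither smaller list, 2 on chromosome 11 and 6 on chromosome 5.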

How the results depend on the processing

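Members called in both libraries numbered 3 of 4, and 4 with the larger list. The pathway count of 16 was 20 with the larger list and 18 with a 2500 bp window. It was 14 with the outermost 5′ end only and 13 with the higher-scoring 50%. With a library left out the counts were 3 to 4 and 16 to 20. All stayed within 1.5 times, but lists of 4 and 22 genes leave no room for a larger rise. Other T-box genes called in both numbered 2, 1 with a 500 bp window and 8 with the larger list, and 2 to 5 with a library left out. The background share, 65.4% as a mean of libraries, was 68.5% with a 2500 bp window, 60.6% with the outermost 5′ end only, 69.5% with the larger list and 57.7% with the higher-scoring 50% of peaks. Mean distal counts of 23.5 (chromosome 11 pair) and 19.5 (chromosome 5 pair) became 13 and 11 with 50 kb flanks, 12 and 6 with 20 kb and 2 and 2 in gene bodies only, since less sequence is covered. With the larger list the order turned, at 34.5 and 35, and the chromosome 5 count was 10 with the higher-scoring 50%. The members' mean density percentile, 65.5, was 49.2 in gene bodies only, where the Tbx2 percentile fell from 85.8 to 0, as it has no distal peak there, and Tbx4 went from 67.2 to 84.8. The Tbx5 percentile, 48.5, ran from 24.4 with 20 kb flanks to 65.1 in gene bodies, and that of Tbx3, 60.4, from 46.2 without replicate 1 to 74.6 without replicate 2 and was 47.0 in gene bodies, so neither keeps its side of the median. The exact CTCF consensus was in 3 distal peaks on average and in 11.5 with 1 mismatch, counting the distal peak per library near another protein-coding gene's 5′ end. Of the values of single genes under alternatives, 39 moved beyond the replicate spread or 1.5 times and 40 did not. Left-out libraries moved Tbx3 promoter peaks (1 to 4), Tbx3 distal peaks (9 to 20) and Tbx5 promoter peaks (0 to 1). Scores carry no depth, so a missing peak does not show a closed site. No paired analysis was possible because there is 1 group.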
